A study of Mus musculus with 35 samples.

Results

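The genes described here encode proteins that repair chemical adducts and strand breaks in DNA. They came from a list of 44 mouse genes, and a gene was taken into the analysis where the array carried a probe set annotated with that gene's symbol alone. This held for 43 of the 44 genes, out of 17097 genes measured. Ercc6 had no such probe set in the annotation used. Where a gene had several probe sets, its brightest, by the mean over all arrays, stood for it.

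Whole lungs came from adult male mice of the outbred CD-1 stock. The animals inhaled air alone or styrene vapour at 1, 5, 10, 20, 40 or 120 ppm, with 5 mice at each of these 7 levels and an Affymetrix expression array for every mouse, 35 in all. No mouse carried a transgene or a second treatment according to the labels, and the air mice are the only untreated group. The labels disagree on the length of exposure: the protocol and the titles give 6 hours on 1 day, whereas the characteristics give 5 days, and no choice between them is made here. The values are log2 probe set summaries deposited by the authors. In whole lung, fewer cells of a type and less RNA per cell cannot be told apart.

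In mouse lung, styrene is oxidised by cytochrome P450 enzymes to styrene oxide, an epoxide that can alkylate DNA bases. Cells remove small damaged bases by base excision repair, in which a glycosylase clips out the base, and bulky adducts by nucleotide excision repair, in which a short stretch of the strand is cut away and resynthesised. Mispaired bases are handled by mismatch repair, broken ends are sensed by the MRN complex and the kinases ATM and ATR and can be rejoined by end joining, and lesions left in place can be copied past by damage tolerance polymerases.

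Promoters are shown for the 3 members that rose most and the 2 that fell most at 120 ppm among those called, so that a reader can see the start regions of genes that moved in opposite directions. Each runs from 250 bases before to 50 bases after the annotated start, 5′ to 3′ on the strand of the gene, from RefSeq on GRCm38.p6. Capitals mark GGGCGG (the Sp1 GC box) and CCAAT (the NF-Y box) on either strand. Msh6 lies at chr17:87974800-87975099 on the plus strand, Hltf at chr3:20057561-20057860 on the plus strand, Xrcc4 at chr13:90089559-90089858 on the minus strand, Mpg at chr11:32226255-32226554 on the plus strand and Ercc1 at chr7:19344821-19345120 on the plus strand.
Msh6: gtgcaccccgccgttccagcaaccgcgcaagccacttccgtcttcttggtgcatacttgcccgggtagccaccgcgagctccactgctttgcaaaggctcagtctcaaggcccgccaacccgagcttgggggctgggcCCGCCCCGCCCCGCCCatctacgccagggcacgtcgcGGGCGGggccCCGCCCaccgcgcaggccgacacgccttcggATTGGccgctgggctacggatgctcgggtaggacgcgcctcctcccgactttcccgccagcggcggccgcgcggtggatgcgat
Hltf: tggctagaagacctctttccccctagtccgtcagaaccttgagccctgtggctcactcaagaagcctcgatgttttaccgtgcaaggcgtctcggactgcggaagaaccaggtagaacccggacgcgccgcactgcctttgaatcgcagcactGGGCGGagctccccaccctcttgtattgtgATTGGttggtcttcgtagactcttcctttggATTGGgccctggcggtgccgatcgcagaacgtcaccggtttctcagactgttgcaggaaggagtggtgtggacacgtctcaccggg
Xrcc4: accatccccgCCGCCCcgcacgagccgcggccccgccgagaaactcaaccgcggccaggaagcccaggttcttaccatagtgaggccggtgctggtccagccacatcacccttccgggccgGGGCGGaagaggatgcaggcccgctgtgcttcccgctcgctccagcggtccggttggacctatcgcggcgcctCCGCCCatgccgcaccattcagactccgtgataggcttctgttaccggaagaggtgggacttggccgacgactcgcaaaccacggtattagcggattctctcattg
Mpg: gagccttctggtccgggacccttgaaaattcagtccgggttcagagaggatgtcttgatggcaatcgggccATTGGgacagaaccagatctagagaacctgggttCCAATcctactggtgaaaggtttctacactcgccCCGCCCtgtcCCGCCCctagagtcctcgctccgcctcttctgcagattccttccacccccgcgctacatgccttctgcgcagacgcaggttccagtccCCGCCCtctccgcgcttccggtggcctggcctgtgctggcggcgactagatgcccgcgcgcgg
Ercc1: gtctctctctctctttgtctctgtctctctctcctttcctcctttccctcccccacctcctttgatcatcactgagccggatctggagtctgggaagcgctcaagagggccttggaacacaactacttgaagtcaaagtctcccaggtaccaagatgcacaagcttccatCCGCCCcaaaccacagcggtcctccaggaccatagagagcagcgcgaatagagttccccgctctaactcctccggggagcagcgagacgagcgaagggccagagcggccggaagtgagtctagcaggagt

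The promoter of Msh6 held 5 GC boxes and 1 CCAAT box, that of Hltf 1 and 2, and that of Xrcc4 3 and 0. Of the members that fell, Mpg held 3 GC boxes and 2 CCAAT boxes and Ercc1 1 and 0. The table lists another start for Hltf, which is not shown. Among all 32851 promoters of this length in the table, 35.7% held a GC box and 37.4% a CCAAT box. None of the 5 windows held CACGTG (7.15% of all promoters), TGACGTCA (1.79%) or TTTNGCGC (1.38%) on either strand. GC content was 71.7% for Msh6, 58% for Hltf, 65.7% for Xrcc4, 62.3% for Mpg and 57% for Ercc1. The table held a promoter for 34 of the 43 members, and a match is a description of letters, not a measured site.

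The arrays carried the markers of lung throughout, with Sftpc of alveolar type 2 cells between 13.69 and 13.82 log2 and Scgb1a1 of club cells between 13.67 and 13.93 on all 35 arrays. They differed as a whole between the groups. The spread of values within an array (the interquartile range over all probe sets) averaged 3.04 log2 in air, 2.85 at 1 ppm and 3.38 to 3.48 from 5 ppm up, and the comparisons with air use the same 5 air mice. Transcripts of liver were high on some arrays: the mean log2 level of Alb, Apoa1 and Cyp3a11 ran from 3.37 to 9.94, and 9 of the 35 arrays were at 6 or above (2 in air, 2 at 1 ppm, 1 at 5 ppm, 3 at 20 ppm and 1 at 40 ppm). Those arrays were kept, and counts without them are given beside the counts they touch. Some cell type markers moved with the same groups. All 3 platelet markers were called lower at 120 ppm than in air, their mean level being 8.22 to 8.70 log2 in air, 6.36 to 6.92 at 5 ppm and 6.30 to 6.98 at 120 ppm. Of 3 red cell markers 2 were called lower (10.26 to 10.91 in air, 8.82 to 9.94 at 5 ppm and 8.98 to 9.74 at 120 ppm), and of 3 macrophage markers 2 were called higher (7.38 to 8.58, 9.03 to 9.52 and 8.99 to 10.03). Other panels had calls in both directions at 120 ppm. Higher and lower were 2 and 2 of 4 alveolar type 1 markers, 1 and 2 of 3 ciliated, 1 and 1 of 3 endothelial and 2 and 1 of 3 T cell markers. Over all genes, 29.8% were called higher and 39.1% lower at 120 ppm. The part of these shifts in the repair gene results was not tested.

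At 120 ppm against air, 21 of the 43 repair genes were higher and 15 lower at an adjusted p under 0.05 (limma, Benjamini-Hochberg over all genes). Over all genes tested, 29.8% were called higher and 39.1% lower, so that the share of members called higher, 48.8%, was above the background and the share called lower, 34.9%, slightly below it. The members' median change was 0.07 log2, against -0.15 over all genes. All 4 break sensors, all 5 end joining genes and all 3 damage tolerance genes rose. Of 7 glycosylases 6 fell and none rose. Nucleotide excision repair was split, with 5 of 10 genes higher and 4 lower. Leaving out the 9 arrays with liver transcripts gave 20 members higher and 16 lower.

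**Figure D1:**
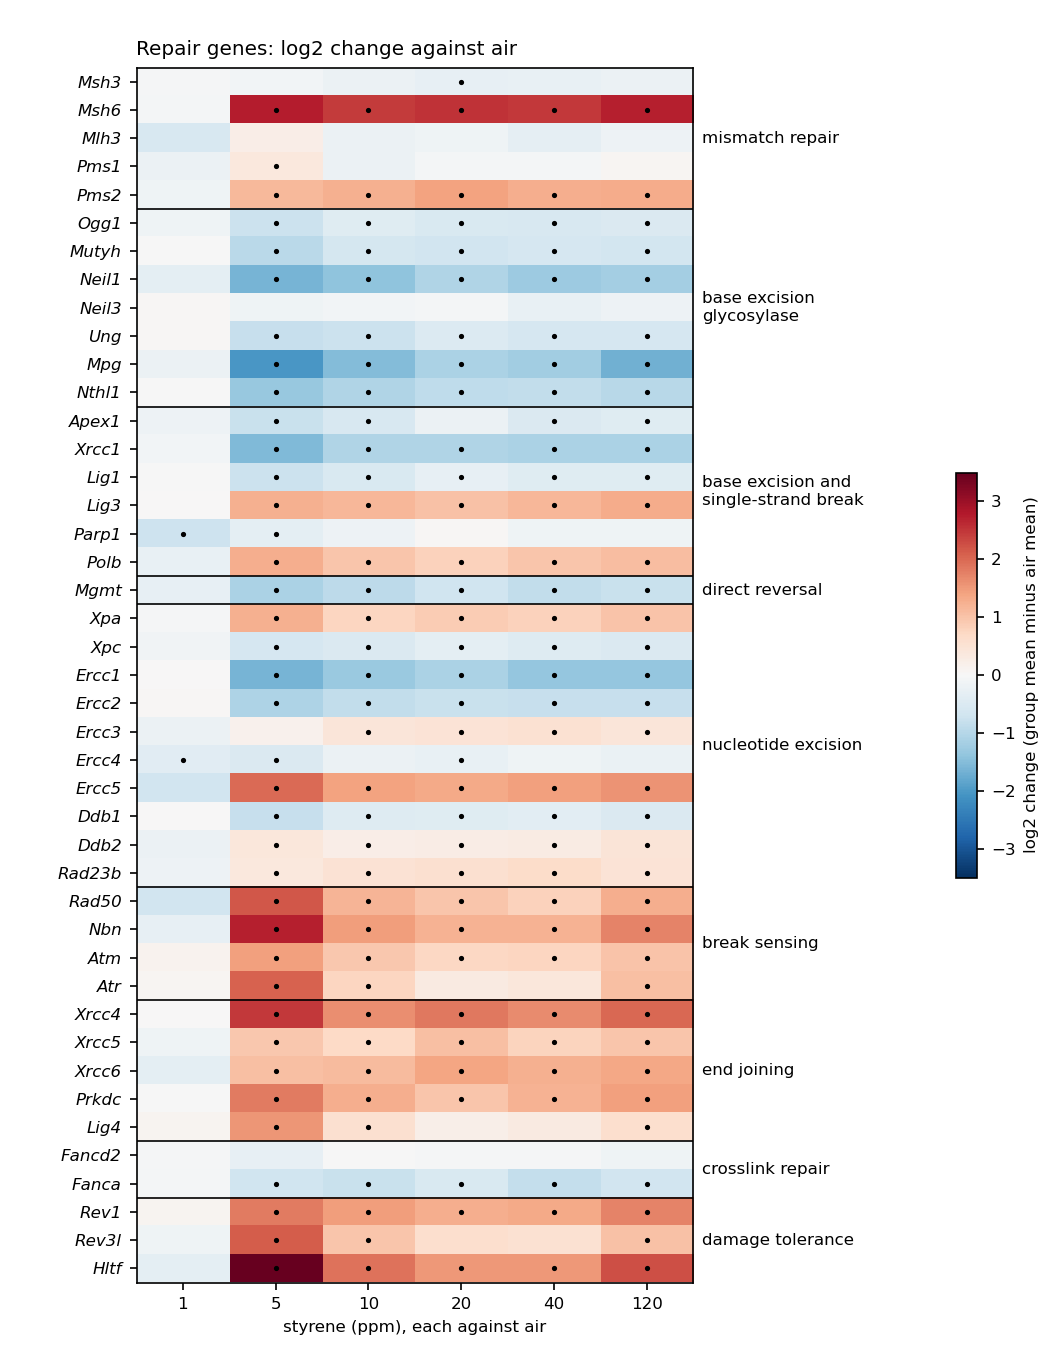
Log2 change of each of the 43 members (vertical axis, grouped by role) at each styrene concentration against air (horizontal axis, ppm), as colour from blue (lower) to red (higher); black dots mark an adjusted p under 0.05. At 1 ppm 2 members carry a dot, and from 5 ppm up the break sensing, end joining and damage tolerance blocks are red and the glycosylase block blue.

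Mismatch repair corrects mispaired bases left by replication and also recognises some alkylated bases. Msh6, which takes part in reading mismatches, changed most of all members at 120 ppm. Its values were 4.05, 4.19, 4.22, 3.77 and 4.36 log2 in the 5 air mice and 6.96, 6.74, 6.75, 7.10 and 6.60 at 120 ppm. The lowest mouse at 120 ppm thus lay well above the highest in air, and the change was 2.71 ± 0.14 log2 (SE, adjusted p = 5.44e-16), a 6.54-fold rise. In the mice at 1 ppm it read 4.14, 3.60, 3.83, 4.39 and 4.29, overlapping air, and at 5 ppm 6.73, 6.69, 6.99, 6.82 and 7.05. From 10 to 120 ppm its group means differed by no more than 0.27 log2. The 5 ppm and 120 ppm mice overlapped. The air values of Msh6 were near or below the medians of the air arrays, 4.35 to 4.48 log2. The size of its rise is thus less sure than its direction. Pms2, which nicks the strand to be corrected, rose by 1.31 ± 0.16 log2 (adjusted p = 8.93e-09). The other 3 mismatch genes did not pass the test at 120 ppm: Msh3, which reads small loops, stood at -0.20 log2, Mlh3 at -0.17 and Pms1 at 0.07. At 5 ppm Pms1 was 0.36 log2 above air (adjusted p = 0.00179), and at 10 ppm it was 0.57 log2 below the 5 ppm mice.

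The glycosylases start base excision by cutting a damaged base from its sugar. The largest fall among all members was that of Mpg, whose enzyme removes alkylated purines such as 3-methyladenine. Its values were 8.99, 8.36, 7.82, 7.70 and 8.06 log2 in air and 6.27, 6.41, 6.65, 6.55 and 6.61 at 120 ppm. No mouse at 120 ppm reached the lowest air mouse, and the change was -1.69 ± 0.22 log2 (adjusted p = 2.93e-08). At 1 ppm the values ran from 7.28 to 8.79, within and below the range of air, and at 5 ppm from 5.90 to 6.44. Neil1 fell by 1.18 ± 0.16 log2 and Nthl1 by 0.96 ± 0.10; both enzymes take out oxidised pyrimidines. Ogg1, which removes 8-oxoguanine, fell by 0.51 log2 (adjusted p = 0.0131), Mutyh, which removes the adenine paired with it, by 0.64, and Ung, which removes uracil, by 0.58. Ogg1 rests on the air group: without air mouse 1 its change was -0.37 (adjusted p = 0.068) and without air mouse 4 it was -0.38 (adjusted p = 0.0657). Neil3, at -0.18 log2 (adjusted p = 0.262), was the glycosylase that did not pass; its values were dim, with a mean of 3.72 in air.

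The later steps of base excision and single-strand break repair were split between partners. Xrcc1, the scaffold that holds the repair enzymes at a nick, read 7.66, 7.44, 7.70, 7.34 and 7.17 log2 in air and 6.12, 6.37, 6.51, 6.25 and 6.52 at 120 ppm, a change of -1.11 ± 0.12 (adjusted p = 1.46e-09). Lig3, the ligase that XRCC1 carries, read 4.31, 4.97, 4.78, 5.02 and 5.33 in air and 6.15, 6.21, 6.27, 6.16 and 6.09 at 120 ppm, a change of 1.29 ± 0.14 (adjusted p = 5.07e-10). The groups did not overlap for either gene, and the directions were opposite. Polb, the polymerase that fills the gap, rose by 1.07 ± 0.21 log2. Apex1, which cuts the strand at a base-free site, fell by 0.42 log2 and Lig1, the replicative ligase, by 0.43 (adjusted p = 7.23e-04 and 0.0015). Parp1, the sensor of strand nicks, was at -0.15 log2 (adjusted p = 0.248) and did not pass. Mgmt, the protein that takes alkyl groups directly off guanine, fell by 0.78 ± 0.16 log2 (adjusted p = 4.90e-05), from a mean of 5.01 ± 0.34 (SD, n = 5) in air to 4.23 ± 0.12 at 120 ppm.

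Within nucleotide excision repair the members that rose and those that fell were spread over the same steps. Among genes for damage recognition, Xpc fell by 0.50 ± 0.09 log2 and its partner Rad23b rose by 0.48 ± 0.11. Ddb1 fell by 0.51 and Ddb2, the subunit that contacts the lesion, rose by 0.44. Of the 2 helicases of TFIIH, Ercc2 fell by 0.81 and Ercc3 rose by 0.42 (adjusted p = 0.00193), a call that was lost without the 9 arrays with liver transcripts, at 0.23 log2 (adjusted p = 0.0638). Xpa, which checks the opened strand, rose by 0.99 ± 0.17. The nucleases that cut on either side of the lesion differed as well. Ercc1, a subunit of the nuclease that cuts 5′ of the lesion, read 9.45, 9.43, 9.42, 9.38 and 9.12 log2 in air and 7.90, 8.07, 8.15, 7.87 and 7.96 at 120 ppm, a change of -1.37 ± 0.13 (adjusted p = 2.63e-11). Its catalytic partner Ercc4 was at -0.23 (adjusted p = 0.057), which did not pass. Ercc5, which cuts 3′ of the lesion, read 5.23, 4.85, 5.02, 4.32 and 5.78 in air and 6.88, 6.53, 6.18, 6.81 and 6.61 at 120 ppm. It rose by 1.56 ± 0.22 (adjusted p = 1.32e-07), with its lowest mouse at 120 ppm above the highest air mouse.

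The break sensors rose together. Nbn, the MRN subunit that recruits ATM, read 4.54, 4.24, 4.15, 4.39 and 5.06 log2 in air, 7.05, 7.34, 7.23, 6.97 and 7.37 at 5 ppm and 6.61, 6.04, 5.91, 6.60 and 5.95 at 120 ppm. Rad50, the MRN subunit that tethers broken ends, read 5.39, 5.48, 5.50, 4.45 and 5.40 in air, 7.38, 7.45, 7.70, 7.21 and 7.40 at 5 ppm and 6.93, 6.33, 6.11, 6.78 and 6.45 at 120 ppm. For both genes the 5 ppm mice lay above all 120 ppm mice, which in turn lay above all air mice. At 120 ppm Nbn was 1.74 ± 0.23 log2 above air (adjusted p = 6.11e-08) and Rad50 1.28 ± 0.22 (adjusted p = 4.68e-06). The kinases followed, with Atm 1.00 ± 0.16 log2 and Atr 1.06 ± 0.27 above air. At 20 and 40 ppm Atr was at 0.33 and 0.41, which did not pass. Its air mean was near the medians of the air arrays, so the sizes of its changes are less sure.

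End joining seals broken ends without a template. Xrcc4, the scaffold of its ligase, read 3.99, 3.56, 3.32, 3.67 and 3.70 log2 in air, 6.05, 6.06, 6.29, 5.91 and 6.24 at 5 ppm and 5.83, 5.54, 5.61, 5.69 and 5.62 at 120 ppm. It rose by 2.01 ± 0.16 log2 (adjusted p = 1.07e-12), with no overlap of air and 120 ppm. Its mean in air, 3.65, was at the dim end of the array, and no detection call is used here, so the size of the rise is less sure than its direction. The 2 Ku subunits that cap the ends, Xrcc5 and Xrcc6, rose by 0.96 ± 0.13 and 1.36 ± 0.11, and Prkdc, the kinase that Ku recruits, by 1.43 ± 0.18. Lig4, the ligase itself, rose by 0.59 ± 0.19 (adjusted p = 0.00543), and its groups overlapped. At 20 and 40 ppm it was at 0.21 and 0.32, which did not pass. The air means of Xrcc6 and Lig4 were also near or below the medians of the air arrays, so the sizes of their rises are less sure. Of the 2 crosslink repair genes, Fanca, part of the core complex, fell by 0.66 log2 (adjusted p = 0.00582), whereas Fancd2, which that complex modifies, was at -0.16 (adjusted p = 0.309). The call of Fanca was lost without the arrays with liver transcripts (-0.40, adjusted p = 0.1).

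The 3 damage tolerance genes had a median change of 1.73 log2, the largest among the roles. Hltf, a helicase and ubiquitin ligase that helps stalled forks past a lesion, read 4.90, 5.14, 4.67, 4.46 and 5.22 log2 in air, 8.19, 8.50, 8.51, 7.99 and 8.62 at 5 ppm and 7.78, 6.66, 6.52, 7.88 and 6.82 at 120 ppm. It had the widest range of group means of all members, 3.82 log2 between 1 and 5 ppm. At 120 ppm the change was 2.25 ± 0.29 (adjusted p = 4.18e-08), and mice 1 and 4 stood above the other 3. Rev1, a scaffold for bypass polymerases, rose by 1.73 ± 0.17 and Rev3l, the catalytic subunit of polymerase zeta, by 1.03 ± 0.26 (adjusted p = 9.86e-04).

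**Figure D2:**
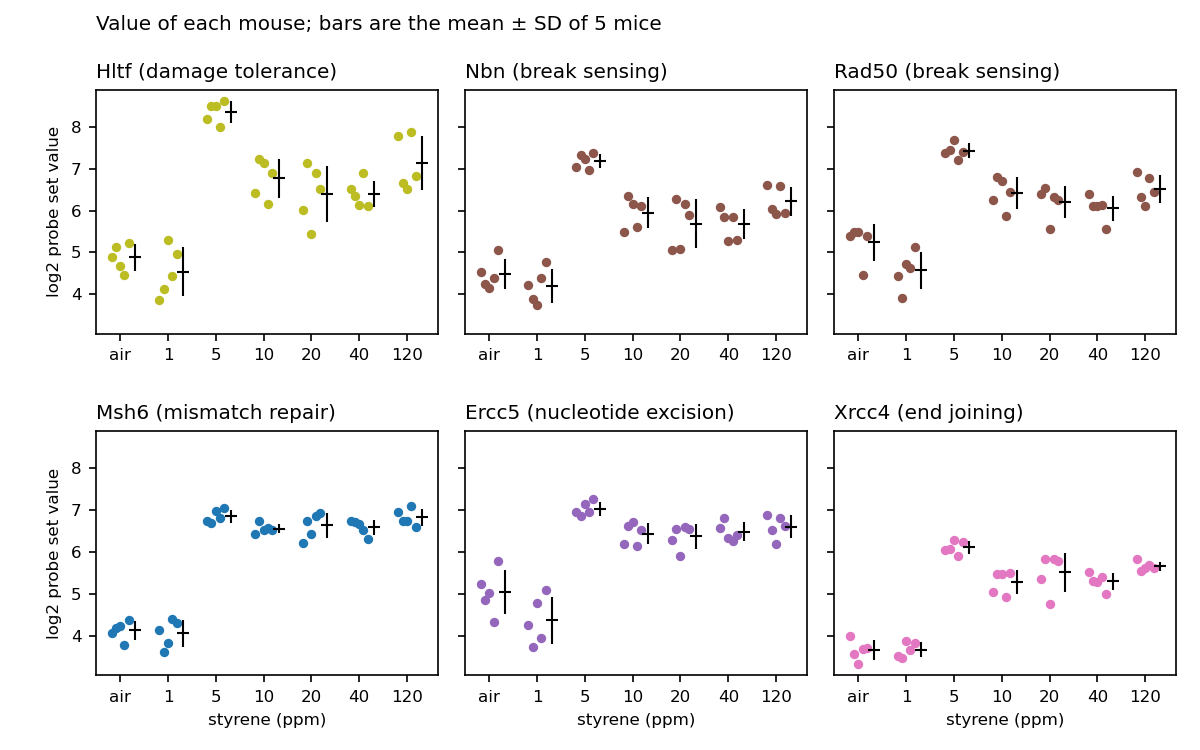
Log2 probe set value (vertical axis) of each mouse in air and at each styrene concentration (horizontal axis, ppm) for the 6 members with the widest range of group means; points are mice and bars the mean ± SD of 5 mice. Air and 1 ppm sit low in all 6 panels, and the 5 ppm mice have the highest mean in each, up to 8.36 for Hltf.

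At 1 ppm against air, none of the 43 members was called higher and 2 were called lower, against 0.965% and 1.49% of all genes. Parp1 read 6.97, 7.45, 7.51, 7.58 and 7.81 log2 in air and 6.63, 6.81, 6.88, 6.88 and 6.56 at 1 ppm, a fall of 0.71 (adjusted p = 0.00123) with no overlap of the groups. Ercc4 fell by 0.40 log2 (adjusted p = 0.0366). Only 1 of 3 probe sets of Parp1 and 1 of 4 of Ercc4 were called lower at 1 ppm. Neither gene was called when its probe sets were averaged. With the interquartile range of each array as a covariate in limma, neither passed (adjusted p = 0.0588 for Parp1 and 0.331 for Ercc4). The count of falls ran from 1 without air mouse 2 to 6 without air mouse 4, and was 1 without the arrays with liver transcripts. At higher concentrations Parp1 was at -0.33 log2 at 5 ppm, which passed, and at 0.03 at 20 ppm, which did not, and Ercc4 was called lower at 5 ppm (-0.51) and 20 ppm (-0.26).

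At 5 ppm against air, 21 members were called higher and 17 lower, where 29.6% and 47.4% of all genes were called. The median change of the members was 0.23 log2, against -0.23 over all genes, a value that was -0.33 with arrays centred on their medians and -0.14 after quantile normalization. All 4 break sensors, 5 end joining genes and 3 damage tolerance genes rose, and 6 of 7 glycosylases fell. The rises were largest for Hltf (3.48 ± 0.29 log2, 11.2-fold), Msh6 (2.74 ± 0.14), Nbn (2.72 ± 0.23) and Xrcc4 (2.46 ± 0.16), and the falls for Mpg (-2.03 ± 0.22), Ercc1 (-1.64 ± 0.13), Neil1 (-1.62 ± 0.16) and Xrcc1 (-1.54 ± 0.12). Values of the groups did not overlap for 33 members (76.7%), against 57.9% of all genes; at 120 ppm these were 29 members (67.4%) and 50.7%. Against the 1 ppm mice, which are a set of animals apart from the air mice, 24 members were higher and 15 lower at 5 ppm, with 31.1% and 48.5% of all genes called. Without the arrays with liver transcripts the counts against air were 22 higher and 16 lower.

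At 10 ppm against air 21 members were higher and 15 lower (29.0% and 37.4% of all genes), at 20 ppm 18 and 16 (29.4% and 34.2%), and at 40 ppm 18 and 15 (28.6% and 36.2%). In all 5 comparisons from 5 ppm up, 17 members were called higher, and these included Msh6, Pms2, Lig3, Polb, Xpa, Ercc5, Ddb2, Rad23b, Rad50, Nbn, Atm, all of the end joining genes but Lig4, Rev1 and Hltf. Another 14 were called lower in all 5: the 6 glycosylases named above, Xrcc1, Lig1, Mgmt, Xpc, Ercc1, Ercc2, Ddb1 and Fanca. By their brightest probe sets, Mlh3, Neil3 and Fancd2 were called in none, 9 members in some, and 0 in opposite directions. Other probe sets of some members differed. For Fancd2, 2 of 3 probe sets were called lower at 5 ppm. At 10 ppm Rev3l had 1 of 3 higher and 1 lower, and Ercc4 had 2 of 4 higher. At 20 ppm Ercc4 had 1 of 4 higher and 1 lower. The 5 comparisons with air share the air mice, so their calls are not independent of each other. The share of all genes called the same way in all 5 is not given here, so these counts have no background beside them.

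The highest concentration was not the one with the largest changes. At 10 ppm against 5 ppm, 5 members were higher and 13 lower, where 17.4% and 9.86% of all genes were called. All 4 break sensors were lower at 10 ppm, with Nbn at -1.24 ± 0.23 log2 (adjusted p = 2.66e-04), Atr at -1.30 ± 0.27 (adjusted p = 6.23e-04) and Atm at -0.47. Rad50 fell to 0.499 of its 5 ppm level. Hltf fell by 1.60 ± 0.29 (adjusted p = 2.31e-04), Rev3l by 1.15, Lig4 by 0.99 and Xrcc4 by 0.83. Among the members higher at 10 than at 5 ppm, Xrcc1 rose by 0.48 (adjusted p = 0.00397), Ddb1 by 0.38 and Ercc1 by 0.34. Msh6 (-0.29, adjusted p = 0.124), Xrcc6 (0.06) and Pms2 (0.09) did not pass. The count of 5 rose to 6 without 5 ppm mouse 4 and dropped to 2 without 5 ppm mouse 1, and each of the calls for Mlh3, Nthl1, Xpa, Ercc1, Ercc4, Ercc5, Atm and Prkdc was lost when some single mice were left out. At 120 ppm against 10 ppm, 0 members were called in either direction by limma, where 0.00585% of all genes were called higher and 0.0117% lower. Of the 43 members 3 had an unadjusted p under 0.05, and the lowest adjusted p was 0.687. The differences between these groups ran up to 0.38 log2 for Xrcc4 and 0.36 for Hltf.

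Many of these changes moved with the array-wide difference described above. An axis of array differences was taken as the widest direction of variation among mice within groups, of which it carried 17.4%, and was scored on every array. Scores were 0.66 to 1.73 in air, 1.01 to 1.78 at 1 ppm, -1.51 to -1.07 at 5 ppm and -0.947 to -0.0816 at 120 ppm, and the groups from 5 ppm up shared no range with air, so that comparisons of them with air under this covariate are extrapolated; the same held for the interquartile range. With it, 6 members were called higher and 5 lower at 120 ppm (14.0% and 11.6%), against 13.2% and 11.9% of all genes, so that the members were near the background. With the interquartile range the counts were 8 and 8 (18.6% each), against 13% and 16.5% of all genes. Calls kept with each of the covariates were those of Msh6, Lig3, Xrcc4, Xrcc6 and Rev1 among the rises and Neil1, Nthl1, Xrcc1, Xpc and Ercc1 among the falls. Msh6 stood at 1.88 log2 with the array axis and 1.78 with the interquartile range, Xrcc4 at 1.21 and 1.35, and Xrcc6 at 1.51 and 1.01. Ercc1 stood at -0.73 and -1.18, Neil1 at -0.96 and -1.49, and Xrcc1 at -0.53 and -1.06. Hltf, by contrast, stood at 0.42 and 0.64, Nbn at -0.06 and 0.53, Rad50 at 0.05 and 0.03, and Atr at -0.54 and 0.80, none of which passed. At 5 ppm, 3 members were higher and 3 lower with the array axis (5.31% and 7.76% of all genes), and 11 and 13 with the interquartile range (13.6% and 20.6% of all genes). The calls kept there with each covariate were Msh6, Xrcc4 and Xrcc6 among the rises and Neil1, Nthl1 and Xpc among the falls. With the array axis Atr was called lower at 20 ppm (-0.88 log2, adjusted p = 0.0285) and 40 ppm (-0.90, adjusted p = 0.0331), and Lig4 at 20 ppm (-0.60, adjusted p = 0.0346), while without it Atr was at 0.33 and 0.41 and Lig4 at 0.21, none called. For 10 against 5 ppm no member was called with the array axis, where 0.427% of all genes were called higher and 0.468% lower. The array axis and the exposure cannot be told apart in the comparisons of 5 ppm and above with air. The same holds for 5 against 1 ppm and for 10 against 5 ppm, which are extrapolated as well. Scores at 10 ppm ran from -0.806 to -0.0476 and shared no range with those at 5 ppm.

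**Figure D3:**
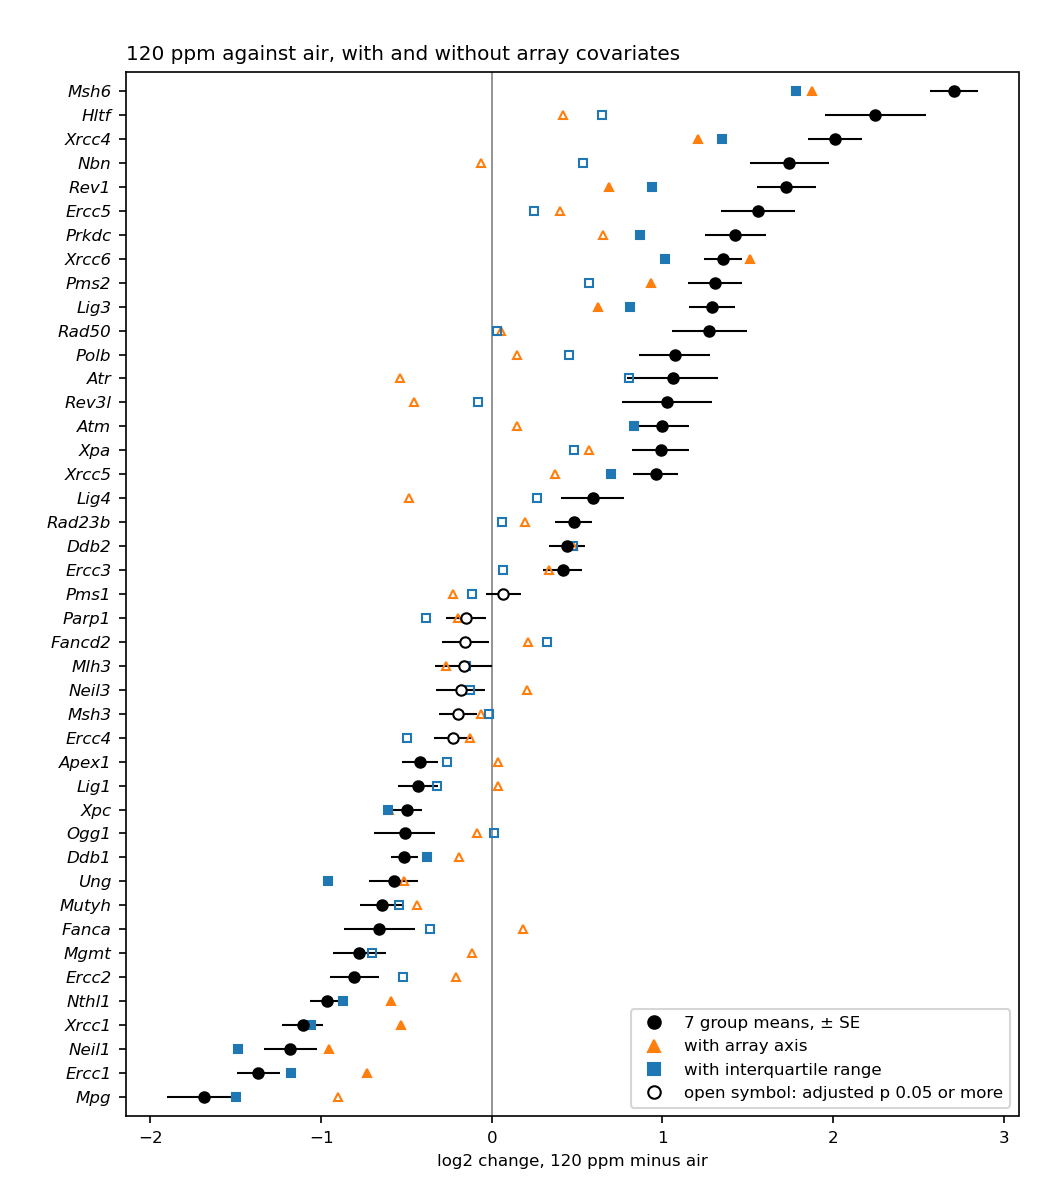
Log2 change of each member at 120 ppm minus air (horizontal axis), ordered by size, from the fit of 7 group means (circles, ± SE) and with the array axis (triangles) or the interquartile range (squares) as a covariate; open symbols have an adjusted p of 0.05 or more. Msh6 stays filled in all 3 fits, at 2.71, 1.88 and 1.78, whereas Nbn, Rad50 and Hltf are filled only without a covariate.

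Partners of a complex were then set against each other within each mouse. The level of 1 probe set cannot be compared with that of another, so only the change of their difference between air and 120 ppm is read, and the 8 pairs were chosen after the values had been seen. The difference of Xrcc1 and Lig3 shifted by -2.40 log2, from 1.84 to 3.36 in the air mice to -0.02 to 0.42 at 120 ppm. That of Ercc2 and Ercc3 shifted by -1.22, Ercc1 and Ercc4 by -1.14, Xpc and Rad23b by -0.98, and Ddb1 and Ddb2 by -0.95. That of Xrcc4 and Lig4 shifted the other way, by 1.42. Xrcc5 and Xrcc6, which form Ku, shifted by -0.40, and Rad50 and Nbn by -0.47, with groups that overlapped. Because the pairs were picked with these changes in view, no test of them is given. A difference within a mouse does not by itself remove the array-wide difference, since partners can follow it to unlike degrees. With the array axis as a covariate, Ercc2 stood at -0.21, Ercc3 at 0.33, Ddb1 at -0.19, Ddb2 at 0.47 and Rad23b at 0.19 at 120 ppm, none called. Xrcc1, Lig3, Ercc1, Xpc, Xrcc4 and Xrcc6 kept their calls with it.

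**Figure D4:**
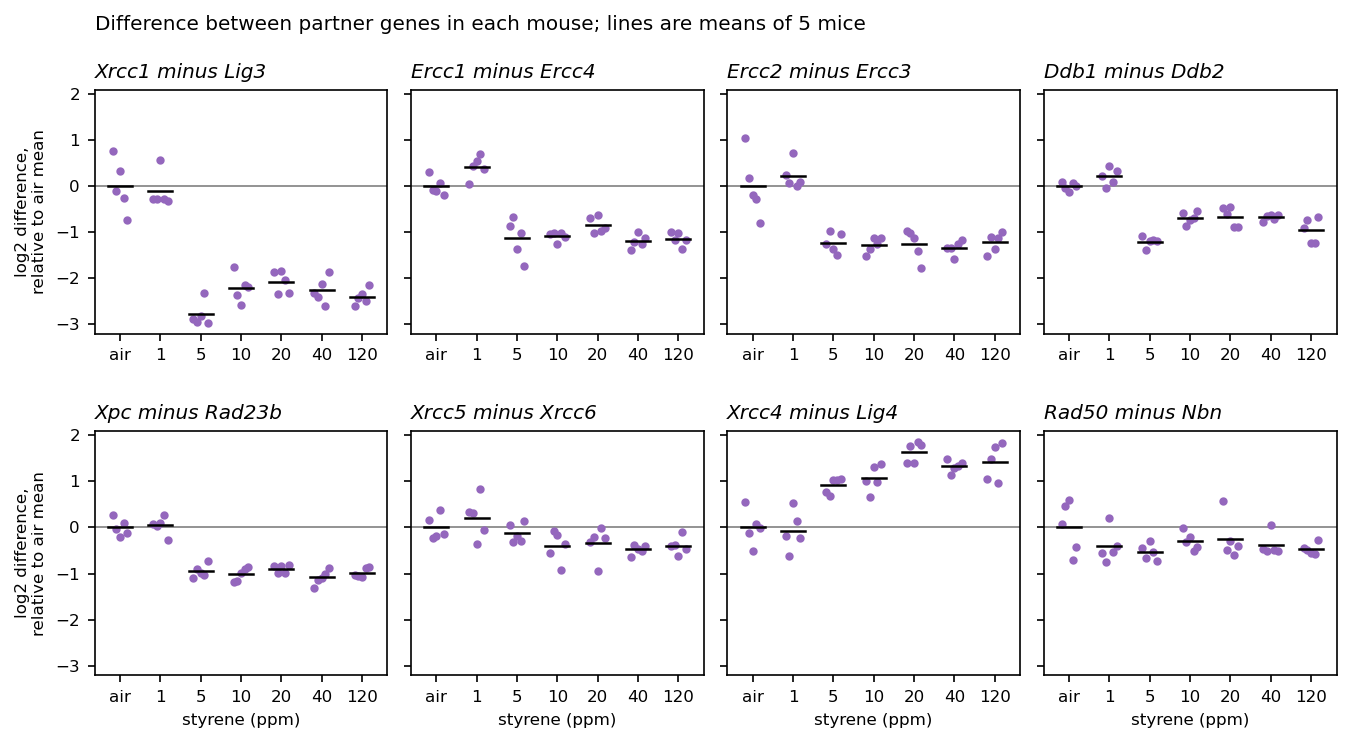
Log2 difference between the 2 genes of each pair in every mouse, relative to the mean of the air mice (vertical axis), by styrene concentration (horizontal axis, ppm); points are mice and lines the means of 5. In 6 of the 8 panels the exposed mice from 5 ppm up leave the range of air, and Rad50 minus Nbn overlaps air. At 120 ppm the largest shift is that of Xrcc1 minus Lig3, at -2.40, and the lowest mouse of that panel is at 5 ppm.

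The 43 members had 81 probe sets, and 22 members had more than 1. At 120 ppm against air, all probe sets were called in the same direction for 9 of these genes, among them Hltf (2.25, 1.42 and 0.33 log2), Atm (1.00 and 2.01), Xrcc4 (2.01 and 1.55), Mpg (-1.69 and -0.78) and Ercc1 (4 of 4 lower). For 10 genes some were called and others not. Lig3 and Pms2 were of this kind, with 2 of 5 and 1 of 3 probe sets higher. So were Atr and Rev3l, each with 1 of 3 higher, and Xrcc6, with 1 of 2. Msh3 belongs here too: its brightest probe set was at -0.20 and did not pass, while another rose by 0.74. So does Ercc4, whose brightest was at -0.23 and did not pass, while 1 of its 4 probe sets was called higher. Rad50 was called in both directions, at 1.28 for the brightest and -0.30 for a dim probe set with a mean of 3.49. For Neil3 and Parp1 none was called.

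**Figure D5:**
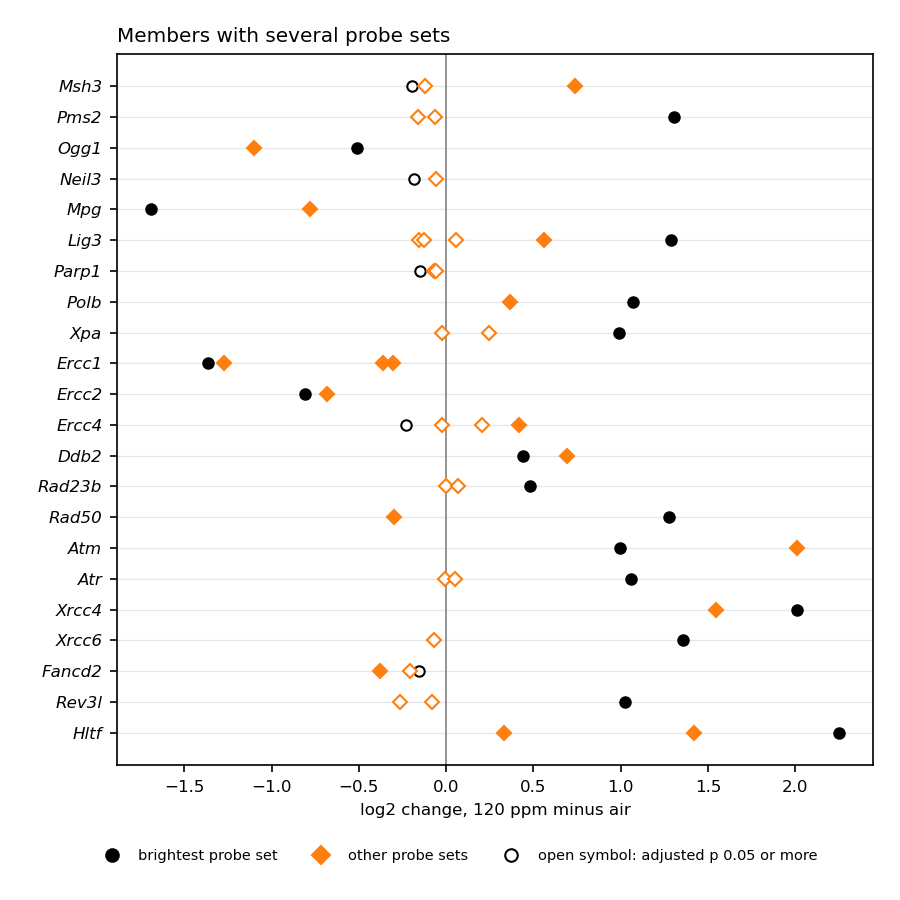
Log2 change at 120 ppm minus air (horizontal axis) of every probe set of the 22 members with more than 1 probe set; circles are the brightest probe set, diamonds the others, and open symbols have an adjusted p of 0.05 or more. Probe sets of Ercc1, Ercc2, Mpg, Atm, Xrcc4 and Hltf lie on the same side of 0, and those of Rad50 on opposite sides, at 1.28 and -0.30.

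Other repair genes, from a list of 75 of which 66 were measured, showed both directions: 29 were higher (43.9%) and 22 lower (33.3%) at 120 ppm, against 29.8% and 39.1% of all genes, with a median of 0.11 log2. The largest rises were those of Polk, a bypass polymerase (1.85 ± 0.16 log2), Topbp1, which activates ATR (1.81 ± 0.19), and Tdp2, which clears trapped topoisomerase from DNA ends (1.70 ± 0.25). The largest falls were those of Poll, a gap filling polymerase of end joining (-1.80 ± 0.15), Gtf2h4, a TFIIH subunit (-1.79 ± 0.16), and Fancf of the Fanconi core complex (-1.76 ± 0.14). Of 29 genes of dividing cells measured, 9 were higher (31.0%) and 10 lower (34.5%) at 120 ppm, near the shares over all genes. Mcm4 rose by 2.41 log2 and Rrm1 by 1.88, whereas Mcm2 fell by 1.54 and Cdt1 by 1.58. Pcna, the sliding clamp of replication, rose by 0.86 ± 0.08. Mki67, a marker of dividing cells, was at 0.28 (adjusted p = 0.106) at 120 ppm but at 2.23 ± 0.15 (adjusted p = 2.68e-14) at 5 ppm. Of 19 targets of p53, 8 were higher (42.1%) and 6 lower (31.6%). Mdm2, the ligase that degrades p53, rose by 2.01 ± 0.12, while Cdkn1a, the cell cycle inhibitor that p53 induces, fell by 1.61 ± 0.31, and Phlda3, Bbc3 and Plk3 fell by 1.61, 1.37 and 1.45.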

How the data were processed

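Total RNA of 35 whole lungs was hybridised to Affymetrix mouse arrays with a kit primed at the poly(A) tail, per the labels. The authors deposited log2 summaries per probe set; RMA and Partek are named in the submitters' processing notes, with no version, and a genome build is not given in the sources used here. Of 45037 probe sets, 28898 carried 1 gene symbol in the platform annotation and gave 17097 genes, each by its brightest probe set. All genes were fitted with limma 3.58.1 in R 4.3.3 (lmFit and eBayes, 7 group means), and a call needed an adjusted p under 0.05, by Benjamini and Hochberg within each comparison. Tests are two-sided, and their error is the variation among mice treated alike. The scripts were tested on simulated data.

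The members and gene lists were chosen with earlier results of these data known, so their pattern is no independent support. All 43 members could be named; values of every mouse were set for the 6 with the widest range of group means, and those of Mpg, Ercc1, Xrcc1, Lig3 and Parp1 were added after they had been seen. Other repair genes were named by the 3 largest rises and falls, dividing-cell and p53 genes by the smallest adjusted p (up to 4) with Mki67, Pcna, Cdkn1a and Mdm2. Mouse numbers were not taken to pair mice across groups. Deviations of same-numbered mice correlated at -0.378 to 0.441 (median 0.0648), others at -0.452 to 0.453 (median -0.0077). Overlapping ranges cannot show that the numbers carry no shared order. The arrays with liver transcripts were all of mice numbered 1, 2 or 3. Alternatives were quantile normalization, averaging the probe sets of a gene, median centring, a filter on dim genes, only the groups compared, a replicate block, a trended and robust prior, the array covariates, a 1.5-fold minimum, 1 ppm mice as controls and leaving out each mouse. The description of partners and the fit without arrays with liver transcripts were chosen after seeing the data.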

Additional observations from a re-analysis of the deposited data

Results flagged for a closer look

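Within each of the 301 sets of 5 mice (43 members in 7 groups), the highest and the lowest mouse were compared with the other 4. In 11 of them a mouse stood apart from the rest by Dixon's criterion, and chance alone gives about 1 in 20. Among the mice in air, Rad50 read 4.45 log2 in mouse 4 (others 5.39 to 5.50), Rad23b read 6.54 in mouse 1, whose array carried liver transcripts (7.17 to 7.39) and Ercc1 read 9.12 in mouse 5 (9.38 to 9.45). At 1 ppm, Ercc1 read 8.84 in mouse 1 (9.42 to 9.58), a mouse whose array also carried liver transcripts. At 10 ppm, Lig4 read 5.08 in mouse 2 (4.20 to 4.44), Xrcc5 read 5.79 in mouse 4 (6.14 to 6.28) and Fancd2 read 4.39 in mouse 4 (3.94 to 4.04). At 20 ppm, Xrcc1 read 6.20 in mouse 2 (6.44 to 6.51) and Lig4 read 3.63 in mouse 3 (4.21 to 4.34); both arrays carried liver transcripts. At 40 ppm, Atm read 6.13 in mouse 4 (5.84 to 5.91). At 120 ppm, Polb read 6.10 in mouse 1 (5.47 to 5.64).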

How the results depend on the processing

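Counts of repair genes moved by over 1.5 times mainly with the array covariates; the cause was not tested. With the array axis, members higher and lower were 3 and 3 at 5 ppm against air, 4 and 7 at 10 ppm, 6 and 8 at 20 ppm, 5 and 6 at 40 ppm, 6 and 5 at 120 ppm, 3 and 1 for 5 against 1 ppm, and 0 and 0 for 10 against 5 ppm; at 1 ppm 4 were lower. With the interquartile range, 11 were higher at 5 ppm, and counts were 6 and 8 at 10 ppm, 6 and 7 at 20 ppm, 4 and 8 at 40 ppm, 8 and 8 at 120 ppm, 3 and 5 for 5 against 1 ppm, with 8 lower for 10 against 5 ppm and 0 lower at 1 ppm. Requiring at least a 1.5-fold change left 8 lower at 20 ppm, 9 at 40 ppm, 9 at 120 ppm and 1 at 1 ppm, and 0 higher and 8 lower for 10 against 5 ppm. The 2 falls at 1 ppm became 0 with the mean of probe sets, 0 with only the 2 groups, 1 with median centring, 1 with the trended prior and 1 without the arrays with liver transcripts, and 1 to 6 on leaving out a mouse. The 5 rises for 10 against 5 ppm became 9 with only the 2 groups, 3 with the trended prior and 2 to 6 on leaving out a mouse. The other counts stayed within 1.5 times. With the mouse number as a replicate block, 21 members were higher and 16 lower at 120 ppm against air, and 5 and 12 for 10 against 5 ppm.

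With the array axis, 5.31% of all genes were called higher and 7.76% lower at 5 ppm, and 12.9% and 11.7% at 10 ppm. The shares were 17.5% and 14.3% at 20 ppm, 16.7% and 14.6% at 40 ppm and 13.2% and 11.9% at 120 ppm. At 1 ppm they were 1.28% and 2.52%, for 5 against 1 ppm 7.43% and 7.22%, and for 10 against 5 ppm 0.427% and 0.468%. With the interquartile range they ran from 12.4% to 13.6% higher and 14.7% to 20.6% lower against air from 5 ppm up. They were 5.57% and 11.5% for 5 against 1 ppm, 12.7% and 6.54% for 10 against 5 ppm, and 0.193% and 0.263% at 1 ppm. Shares of all genes are not given for the other alternatives, so their member counts have no background beside them. Signs of single members turned as follows at 5 and 120 ppm against air, the comparisons checked gene by gene; with the array axis Atr was also called lower at 20 ppm (-0.88) and 40 ppm (-0.90) and Lig4 at 20 ppm (-0.60). At 5 ppm with the array axis, Msh3 was 0.0969, Pms1 -0.061, Neil3 0.419, Polb -0.0454, Rad23b -0.0414, Atr -0.236, Fancd2 0.254, Fanca 0.494 and Rev3l -0.00464. At 5 ppm with the interquartile range, Msh3 was 0.116, Ercc3 -0.257, Rad23b -0.114 and Fancd2 0.282. At 5 ppm after quantile normalization, Mlh3 was -0.0805, Neil3 0.00838 and Ercc3 -0.124; Ercc3 was -0.00621 without the arrays with liver transcripts, Msh3 0.29 with the mean of probe sets and Parp1 0.382 against 1 ppm mice. At 120 ppm with the array axis, Pms1 was -0.228, Neil3 0.209, Apex1 0.0378, Lig1 0.0377, Nbn -0.0622, Atr -0.539, Lig4 -0.482, Fancd2 0.213, Fanca 0.182 and Rev3l -0.458. At 120 ppm with the interquartile range, Pms1 was -0.117, Ogg1 0.0159, Fancd2 0.324 and Rev3l -0.0831. With the mean of probe sets Msh3 was 0.14 and Ercc4 0.0927; against 1 ppm mice Mlh3 was 0.409, Parp1 0.561 and Ercc4 0.174; without the arrays with liver transcripts Mlh3 was 0.095, and leaving out a mouse it ran from -0.301 to 0.0553. Arrays give no read depth; probe sets near the dim end, such as those of Neil3 and Fancd2, carry little range for a fall.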
